A study of Mus musculus with 12 samples.

Results

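The genes of the mitochondrial ribosomal proteins were followed on 12 Mouse Gene 2.0 ST arrays of TSEC, a murine cell line that was made by immortalizing endothelial cells of the liver sinusoids. A gene was a member when its symbol began with Mrpl or Mrps and a digit and a transcript cluster, the probe set of the array, carried that symbol alone. This gave 70 genes among the 13556 measured genes with 1 symbol, 43 of the large subunit (Mrpl) and 27 of the small subunit (Mrps). They were represented by 79 transcript clusters, and where a gene had 2, which was so for 9 genes, the cluster with the higher mean over the 12 arrays was used. This mean chose the cluster and is not a result. A further 12 clusters that share an Mrpl or Mrps symbol with a neighbouring gene were left out. The values are log2 expression values, and 68 of the 70 genes were over 4.5, the level the study used for a present gene, on all 12 arrays. Mrpl27 passed it on 5 arrays (4.24 to 4.74) and Mrps14 on 3 arrays (3.97 to 4.54).

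The cells were given FFA together with INT-767 (FFA+INT-767), FFA alone, INT-767 alone, or medium alone (Media), with 3 arrays in each group. FFA was a mixture of oleic and palmitic acid and INT-767 activates FXR and TGR5, receptors for bile acids. In the sample labels oleic acid was at 0.66 mM and palmitic acid at 0.33 mM, INT-767 was at 30 μM, the exposure lasted 8 hours, and the methods of the study give less oleic acid and a longer exposure, so the exposure is not settled. All 4 groups are the same cell line, the labels call the arrays of a group biological replicates and the study calls them triplicate wells, so the spread behind a p-value is that of these arrays and may be technical. The array medians lay between 5.76 and 5.87 and 21150 to 22137 clusters were over 4.5. Of the markers of endothelial cells Kdr was over 4.5 on 3 arrays, Eng on 1, Mrc1 on 2 and Mcam on all 12. Pecam1, Cdh5, Tek, Tie1, Vwf, Emcn, Stab1, Stab2 and Lyve1 matched no cluster with 1 symbol. Of the markers of stellate cells and fibroblasts Acta2, Col1a1, Pdgfrb and Des were over 4.5 on all 12, Col1a2 on 8 and Rgs5 on 1. Apoa1, a hepatocyte marker, and Cd68 and Cd14, markers of Kupffer cells and leukocytes, were also over 4.5 on all 12. Alb and Ttr of the hepatocyte markers and Clec4f of the Kupffer cell markers were so on 1 array each.

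The mitochondrial ribosome, or mitoribosome, translates the few mRNAs of the mitochondrial genome, which encode core subunits of the respiratory chain and the ATP synthase. Its RNAs are made in the mitochondrion, but its proteins are encoded in the nucleus, made in the cytosol and imported. The large subunit forms the peptide bonds and the small subunit holds the mRNA and reads the codons. Of the members, 43 have a counterpart in bacterial ribosomes and 25 are specific to mitochondria. Subunit names do not always follow structure: Mrps30 and Mrps18a, named for the small subunit, lie in the large one.

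Many mitoribosomal genes are known to have promoters with sites for nuclear respiratory factors, so the promoters were examined. RefSeq promoters (build GRCm38.p6) were found for 61 of the 70 members, and 250 bases before the start listed first for each gene were searched on both strands. The letters CGGAAG, the core of ETS factors such as GABP, were present in 28 of 61 members (45.9%), against 23.1% of the 10591 measured genes with a promoter and 13.8% of all 27025 promoters. The NRF1 motif (GCGCA, any base, then GCGC) was present in 8 members (13.1%), against 7.77% of measured genes, and the YY1 letters AANATGGC in 7 (11.5%), against 4.25%. Among all promoters these were at 3.86% and 3.93%. The GC box GGGCGG was present in 30 members (49.2%), against 54.9% of measured genes and 32.9% of all promoters. None of the 4 was found in 9 members (14.8%), against 33.9% of measured genes. In 2 members different motifs shared bases. Large and small subunit promoters held the ETS letters at 43.2% and 50%, and NRF1 letters at 18.9% and 4.17%, with 7 and 1 genes. A match is a description of the letters and not of binding. The 150 bases before the start are shown for the 3 members with an unadjusted p under 0.05 in a treatment comparison and for the 3 with the smallest p for the replicate number, a choice made after their values were seen, with the motif matches in capitals.
Mrpl47: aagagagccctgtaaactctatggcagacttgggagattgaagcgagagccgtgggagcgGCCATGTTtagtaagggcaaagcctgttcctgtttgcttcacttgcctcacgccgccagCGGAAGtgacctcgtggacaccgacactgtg
Mrpl32: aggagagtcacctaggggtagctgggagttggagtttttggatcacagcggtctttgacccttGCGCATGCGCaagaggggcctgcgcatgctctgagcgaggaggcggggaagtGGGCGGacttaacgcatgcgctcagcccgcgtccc
Mrps27: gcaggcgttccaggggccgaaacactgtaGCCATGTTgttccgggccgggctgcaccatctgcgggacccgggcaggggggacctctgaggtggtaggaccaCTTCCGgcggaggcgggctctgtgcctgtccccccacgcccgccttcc
Mrpl9: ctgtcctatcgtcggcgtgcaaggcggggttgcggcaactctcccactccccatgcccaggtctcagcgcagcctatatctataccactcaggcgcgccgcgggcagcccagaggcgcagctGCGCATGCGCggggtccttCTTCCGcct
Mrpl16: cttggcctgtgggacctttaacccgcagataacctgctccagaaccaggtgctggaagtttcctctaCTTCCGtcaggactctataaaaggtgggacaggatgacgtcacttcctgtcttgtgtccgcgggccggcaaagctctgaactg
Mrpl2: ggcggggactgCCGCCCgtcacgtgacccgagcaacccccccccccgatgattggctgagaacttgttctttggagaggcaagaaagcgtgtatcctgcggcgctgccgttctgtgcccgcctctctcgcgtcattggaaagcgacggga
The windows lie at chr3:32736756-32736905 (minus strand), chr13:14613038-14613187 (minus strand), chr13:99344636-99344785 (plus strand), chr3:94443186-94443335 (plus strand), chr19:11770265-11770414 (plus strand) and, for the first of 3 starts of Mrpl2, chr17:46646071-46646220 (plus strand). Mrpl47 and Mrps27 hold both the YY1 and the ETS letters, Mrpl9 the NRF1 and the ETS letters, Mrpl32 the NRF1 letters and a GC box, Mrpl16 the ETS letters and Mrpl2 a GC box.

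The label of an array was checked with Angptl4 and Fabp4, targets of fatty acid signalling. Angptl4 was 10.21, 10.24 and 10.49 in FFA+INT-767 replicates 1, 2 and 3, 10.34, 8.23 and 10.64 in FFA, 8.24, 10.43 and 7.76 in INT-767, and 8.91, 8.08 and 8.26 in Media. Fabp4 was 7.09 in FFA replicate 2, against 9.46 and 9.79 in the other FFA arrays, and 8.27 in INT-767 replicate 2, against 6.32 and 5.11 in the other INT-767 arrays. The library labelled FFA replicate 2 thus lay with the arrays without FFA, and the library labelled INT-767 replicate 2 with the arrays given FFA. The medians and counts of the members, and the treatment differences of the named genes, are also given without both where they use these arrays. In a treatment comparison the other group then keeps its replicate 2 array. Treatment and replicate number are therefore not separated in these fits. Over all clusters, deviations from the group means were shared by arrays with the same number, so each treatment comparison was also read within replicate numbers.

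The levels of the 70 genes varied little. A gene's range over the 12 arrays had a median of 0.47 on the log2 scale, against 0.55 over all genes. Mrpl54 (1.39), Mrpl47 (1.35) and Mrps27 (0.97) had the widest ranges and Mrpl17 (0.25) the narrowest. The level of the members on an array was summarised as the median deviation of the genes from their own means over the 12 arrays. This median was -0.14, 0.074 and -0.022 in FFA+INT-767 replicates 1, 2 and 3, -0.011, 0.13 and 0.068 in FFA, -0.15, 0.072 and -0.057 in INT-767, and -0.014, 0.069 and -0.024 in Media. The array of replicate 2 was the highest of its group in each of the 4 groups. The same median over all genes stayed between -0.039 and 0.019.

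Large and small subunit genes moved together. The difference between the median deviation of large and that of small subunit genes lay between -0.055 and 0.053 over the 12 arrays. Of the 70 genes, 64 had a positive correlation over the 12 arrays with the mean of the other 69 (median r = 0.60), which describes arrays that share a cell line and a normalization. Mrpl19 had the highest r (0.92) and Mrps12, a counterpart of a decoding-site protein of bacteria, the lowest (-0.40). The median r between pairs was 0.33 within the large subunit, 0.35 within the small subunit and 0.35 between them. These correlations and subunit differences were not set against those of other genes, so whether they are particular to the members was not tested.

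**Figure D1:**
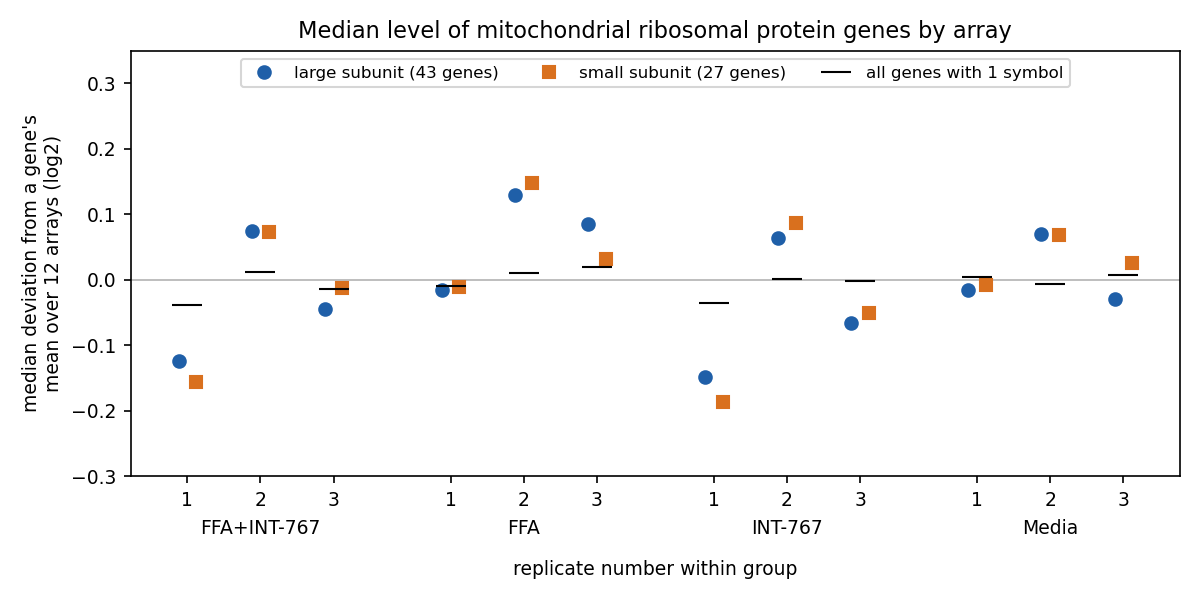
Median deviation (log2) of the 43 large subunit genes (circles), the 27 small subunit genes (squares) and all genes with 1 symbol (bars) from each gene's mean over 12 arrays, by group and replicate number. The 2 subunits lie within 0.055 of each other on every array, and for both subunits, but not for all genes, replicate 2 is highest in each group.

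FFA was compared with Media to ask whether fatty acids alter these genes. With FFA 54 genes had higher and 16 lower means (51.4% of all genes were higher), with a median log2 fold change of 0.064 (0.051 for the large and 0.072 for the small subunit), against 0.0042 over all genes. No member passed a Benjamini-Hochberg adjusted p of 0.05 in limma, nor did any of the 24838 clusters (0%), and 1 member, Mrpl47, had an unadjusted p under 0.05, against 2.68% of all clusters (1.34% in each direction). With the replicate number as a block it was again Mrpl47 alone, against 5.89% of all clusters. The groups did not overlap for 4 members, all higher with FFA (Mrpl18, Mrpl42, Mrpl47 and Mrpl57, all of the large subunit), against 3.6% of all clusters, and for 0 that were lower, against 3.41%. Within replicate numbers the median was -0.016, 0.071 and 0.12 for replicates 1, 2 and 3, against -0.015, 0.024 and 0.0053 over all genes. Without FFA replicate 2 and INT-767 replicate 2 the median was 0.020, with 46 genes higher and 24 lower. Of the members 0 then had an unadjusted p under 0.05, against 2.45% of all clusters, and between 2 FFA and 3 Media arrays 6 were higher and 2 lower without overlap, against 6.4% and 7.45%.

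Mrpl47, a counterpart of a bacterial protein at the exit of the nascent chain, had the largest difference. It was 8.52, 8.89 and 8.79 in FFA replicates 1, 2 and 3, and 7.88, 8.01 and 8.49 in Media, so every FFA array was above every Media array. The log2 fold change was 0.61 (standard error 0.19, unadjusted p = 0.0172, adjusted p = 1.0 by limma), with an unadjusted p of 0.0080 under the block. It was 0.53 without FFA replicate 2 (unadjusted p = 0.0580 by limma). The gene has a second cluster with a lower mean, at 7.02, 7.36 and 7.28 in FFA and 6.96, 6.99 and 7.05 in Media, where the fold change was 0.22 (unadjusted p = 0.123 by limma). A cluster shared by Mrpl47 and its neighbour Actl6a was not used. Mrpl42, a mitochondria-specific protein, was 9.81, 9.73 and 9.69 in FFA and 9.60, 9.64 and 9.45 in Media (log2 fold change 0.18, standard error 0.11, unadjusted p = 0.140 by limma, or 0.19 and 0.222 without FFA replicate 2), and was named after its values were seen.

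INT-767 was compared with Media for the effect of the bile acid receptor agonist alone. Here 23 genes had higher and 47 lower means (median log2 fold change -0.032, against -0.022 over all genes, of which 43.2% were higher). With the arrays shifted to the same median the split was 35 higher and 35 lower, so no direction is given. The median turned to 0.018 without INT-767 replicate 1. With all arrays it was -0.021 for the large and -0.038 for the small subunit. No member had an adjusted p under 0.05, as for all clusters (0%), 1 was lower at an unadjusted p under 0.05 (2.92% of all clusters, 1.72% lower and 1.2% higher), and 4 members (Mrpl23, Mrpl32, Mrpl45 and Mrps27) were lower and 1 (Mrpl21) higher without overlap (4.05% and 3.03% of all clusters). Mrpl32, a counterpart of a bacterial large subunit protein, was 7.86, 8.06 and 8.02 in INT-767 and 8.48, 8.24 and 8.17 in Media, with a difference of -0.32 on the log2 scale (standard error 0.13, unadjusted p = 0.0486, adjusted p = 1.0 by limma). Its difference was -0.62 in replicate 1 and -0.18 and -0.15 in replicates 2 and 3, and with the replicate number as a block the unadjusted p was 0.0646, so that 0 members passed, against 8.07% of all clusters. Without FFA replicate 2 and INT-767 replicate 2, 12 genes were higher and 58 lower (median -0.10), 0 had an unadjusted p under 0.05 (2.82% of all clusters), and between 2 and 3 arrays 18 were lower and 1 higher without overlap, against 10.3% and 5.46% of all clusters. Mrpl32 then had -0.36 (unadjusted p = 0.0661 by limma).

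FFA+INT-767 was set against FFA to see what INT-767 did on top of fatty acids. Here 14 members were higher and 56 lower, with a median log2 fold change of -0.091 (-0.097 for the large and -0.088 for the small subunit), against -0.037 over all genes, of which 39.0% were higher. The median was below 0 within each replicate number (-0.11, -0.064 and -0.12), but so was that over all genes (-0.047, -0.009 and -0.041). The median of the members was -0.035 after a second quantile normalization, with 25 genes higher and 45 lower, and -0.055 without FFA replicate 2, with 20 higher and 49 lower of 69, of which 10 were lower and 1 higher without overlap (8.02% and 9.08% of all clusters) and 0 had an unadjusted p under 0.05 (3.63%). It was -0.032 without FFA+INT-767 replicate 1. The groups did not overlap for 9 members that were lower (Mrpl15, Mrpl22, Mrpl36, Mrpl42, Mrpl45, Mrpl54, Mrps5, Mrps30 and Mrps35, 4.6% of all clusters) and for Mrps12, which was higher (5.17%). No member and no cluster (0%) passed an adjusted p of 0.05, and 1 member was lower at an unadjusted p under 0.05 (4.73% of all clusters, 2.2% lower and 2.53% higher). With the replicate number as a block these were 4, all lower, against 12.1% of all clusters.

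The 4 were Mrps27, Mrpl47, Mrpl54 and Mrps35, of which all but Mrpl47 are named after their values were seen. Mrps27, a pentatricopeptide repeat protein of the small subunit, was 6.95, 7.56 and 7.36 in FFA+INT-767 and 7.54, 7.92 and 7.84 in FFA. Its groups overlapped by 1 value, but it was lower in each of the 3 replicate numbers. The log2 fold change was -0.48 (standard error 0.19, unadjusted p = 0.0399, adjusted p = 0.958 by limma, unadjusted p = 0.0038 with the block). It was -0.31 without FFA+INT-767 replicate 1 and -0.40 without FFA replicate 2 (unadjusted p = 0.115 by limma). Against Media it was -0.38 (standard error 0.17, unadjusted p = 0.0669 by limma), with Media at 7.74, 7.69 and 7.58 and no overlap. Mrpl54, a mitochondria-specific protein of the large subunit, was 7.72, 8.67 and 8.36 in FFA+INT-767 and 8.73, 8.79 and 8.87 in FFA (log2 fold change -0.55, standard error 0.24, unadjusted p = 0.0545 by limma). Its difference was -1.01, -0.12 and -0.51 in replicates 1, 2 and 3, so its size varied between them. Mrpl47 differed by -0.52 (standard error 0.23, unadjusted p = 0.0597 by limma), or -0.75, -0.27 and -0.52 in replicates 1, 2 and 3. The differences of Mrpl54 and Mrpl47 were -0.55 and -0.44 without FFA replicate 2 (unadjusted p = 0.102 and 0.153 by limma). Against Media, Mrpl54 had -0.49 in INT-767 and -0.59 in FFA+INT-767 (unadjusted p = 0.0610 and 0.0662 by limma), with overlap in both. Without INT-767 replicate 2 the INT-767 value was -0.59 (unadjusted p = 0.0524 by limma).

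Mrps30 and Mrps18a, the genes named for the small subunit whose proteins lie in the large one, were followed in the same comparisons. Mrps30 was 8.15, 8.45 and 8.43 in FFA+INT-767, 8.48, 8.70 and 8.51 in FFA and 8.55, 8.60 and 8.69 in Media, below FFA and below Media without overlap (log2 fold changes -0.22 and -0.27, unadjusted p = 0.132 and 0.0710 by limma), and its difference from FFA was -0.15 without FFA replicate 2. Mrps18a was 8.31, 8.37 and 8.29 in FFA+INT-767 and 8.51, 8.38 and 8.41 in Media, also without overlap (log2 fold change -0.11, unadjusted p = 0.354 by limma). Mrps36 was not among the genes measured with 1 symbol.

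The addition of fatty acids to the agonist was read from FFA+INT-767 against INT-767, where 42 genes were higher and 28 lower (median log2 fold change 0.0097, against -0.0059 over all genes, of which 47.5% were higher). No groups were without overlap, against 3.37% higher and 2.21% lower of all clusters, and 0 members had an unadjusted p under 0.05, against 2.14% of all clusters (1.35% higher, 0.795% lower) and 4.72% with the block, where it was 0 members too. With the arrays shifted to the same median 29 were higher and 41 lower. Without INT-767 replicate 2 the split was 58 higher and 11 lower of 69, with a median of 0.083, and between 3 and 2 arrays 13 were higher and 0 lower without overlap, against 9.51% and 6.73% of all clusters. Of the members 0 had an unadjusted p under 0.05 there (3.19% of all clusters). FFA+INT-767 against Media gave 29 higher and 41 lower (median -0.019, against -0.026 over all genes, of which 43.1% were higher). Here 6 members (Mrpl22, Mrpl23, Mrps18a, Mrps27, Mrps28 and Mrps30) were lower without overlap (4.76% of all clusters) and 0 higher (5.79%), and 0 had an unadjusted p under 0.05 (5.38% of all clusters, 3.03% higher and 2.35% lower), also with the block (8.83%). After a second quantile normalization 39 were higher and 30 lower, so the direction of this median depends on the scaling, and it was 0.038 without FFA+INT-767 replicate 1 and 0.026 without Media replicate 2. It was -0.092, -0.0028 and -0.010 within replicates 1, 2 and 3, against -0.049, 0.013 and -0.034 over all genes. The interaction, which asks whether the FFA difference was altered by INT-767, had a median of -0.032 and 0 members with an unadjusted p under 0.05, against 2.69% of all clusters. Mrpl47 had the smallest p of the members there (-0.72, standard error 0.46, unadjusted p = 0.143 by limma). With the replicate number as a block 2 members passed, Mrpl47 and Mrps14 (unadjusted p = 0.0354 and 0.0492, adjusted p = 0.943 by limma), against 4.91% of all clusters. Without FFA replicate 2 and INT-767 replicate 2 the median was 0.056, and 0 passed (2.19%). These comparisons share control arrays and are not independent of each other. The smallest adjusted p of a member in any of them was 0.916. The 6 measured stellate cell and fibroblast markers, which moved with the replicate number, had a median log2 fold change of -0.38 with FFA, -0.68 with INT-767 and -0.73 with FFA+INT-767 against Media, and of -0.32 in FFA+INT-767 against FFA, where 5 were tested. The log2 of their summed level was 9.53 to 11.04 in FFA+INT-767, 9.95 to 11.55 in FFA, 9.38 to 11.77 in INT-767 and 10.24 to 12.35 in Media. Their part in these results was not tested, and in bulk RNA fewer cells of a type and less RNA per cell cannot be told apart.

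**Figure D2:**
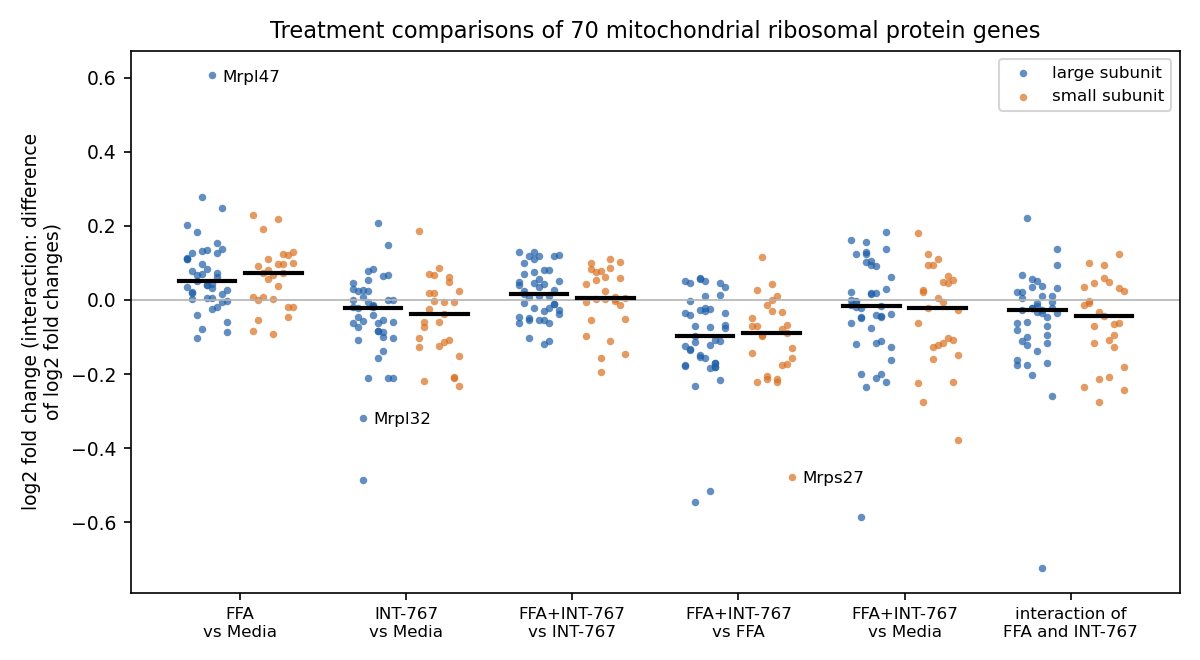
Log2 fold change of each of the 43 large and 27 small subunit genes (points) in 5 treatment comparisons and the interaction, with the median of each subunit (bars). Genes with an unadjusted p under 0.05 are named. The subunit medians were -0.097 and -0.088 in FFA+INT-767 against FFA, a median over the members that was -0.055 without FFA replicate 2.

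The large and small subunit medians differed by -0.021, 0.017, 0.012, -0.0086 and 0.0052 (large minus small) in FFA against Media, INT-767 against Media, FFA+INT-767 against INT-767, FFA+INT-767 against FFA and FFA+INT-767 against Media. The SD of this difference over the 3 replicate numbers was 0.092, 0.030, 0.011, 0.050 and 0.029, so it exceeded the spread between replicates only for FFA+INT-767 against INT-767, where it was -0.015 when all clusters of a gene were averaged.

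The replicate number was then tested over the 12 arrays with treatment as a factor, since the arrays grouped by it. In the F test 16 of the 70 genes (22.9%) passed an adjusted p of 0.05 by limma, 10 of the large and 6 of the small subunit. All clusters did so at 20.4% and all genes with 1 symbol at 26.9%, so the share is near the background. At an unadjusted p under 0.05 it was 31 members, against 35.6% of all clusters. In replicate 1, 56 genes were lower and 14 higher than in the others (median -0.13, against -0.021 over all genes), with 12 lower and 0 higher at an adjusted p under 0.05, against 7.83% and 6.57% of all clusters (54.9% of all genes were lower). The arrays did not overlap for 7 that were lower and 0 that were higher, against 4.34% and 2.6%. In replicate 2, 61 were higher and 9 lower (median 0.13, against 0.011), with 10 higher and 0 lower, against 5.69% and 4.39% (53.0% of all genes were higher), and 8 higher and 0 lower without overlap, against 3.83% and 2.73%. In replicate 3, 33 were higher and 37 lower (median -0.012), with 1 higher (Mrpl16) and 2 lower (Mrpl24 and Mrps14), against 5.22% and 4.8%. With the arrays shifted to the same median its median was 0.043, so no direction is given for it. The medians of the large and small subunit were -0.13 and -0.14 in replicate 1 and 0.12 and 0.14 in replicate 2.

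These medians were also read within treatments. Replicate 1 against the others of its group had a median of -0.17 in FFA+INT-767 (57 of 70 lower), -0.14 in FFA (59 lower), -0.15 in INT-767 (58 lower) and -0.020 in Media (38 lower). Over all genes it was -0.034, -0.028, -0.038 and -0.0027 in the same order, with 56.5%, 55.5%, 56.4% and 50.5% lower. Replicate 2 had 0.14, 0.099, 0.19 and 0.090 in this order, with 56, 54, 61 and 48 of 70 genes higher. Over all genes replicate 2 had 0.035, 0.0048, 0.016 and -0.0068, with 43.7%, 48.9%, 47.2% and 51.3% lower. Media had the smallest of the member medians for both numbers, a difference that was not tested. For replicate 1 the median over all genes was smallest in Media too. Replicate 1 was the lowest of 3 in all 4 groups for 19 genes, and replicate 2 the highest for 18. The same count was not made over all genes, so whether these numbers are unusual was not tested. Without FFA replicate 2 and INT-767 replicate 2, 55 genes were lower in replicate 1 (median -0.12) and 56 higher in replicate 2 (median 0.11), but 2 passed the F test (2.86%), against 6.46% of all clusters. With any 1 array left out 6 to 12 passed (8.57% to 17.1%), against 11.7% to 17.8% of all clusters. Without FFA replicate 2 and INT-767 replicate 2, 2 members were lower in replicate 1 and 0 higher in replicate 2 at an adjusted p under 0.05. Those higher in replicate 2 at this threshold were 5 with shifted arrays and 8 after a second quantile normalization. The shares of all clusters were not counted for these settings. After a second quantile normalization 48 were lower in replicate 1 (median -0.082) and 56 higher in replicate 2 (median 0.11). Cell type markers moved with the replicate number as well. All 6 measured stellate cell and fibroblast markers were higher in replicate 1 (median log2 difference 1.22, 4 of them called). The log2 of their summed level was 11.04 to 12.35 in replicate 1, 9.38 to 10.41 in replicate 2 and 9.73 to 10.24 in replicate 3. Acta2, Col1a1, Pdgfrb and Des were over 4.5 on all 12 arrays, Col1a2 on 8 and Rgs5 on 1, and Lrat matched no cluster. The summed level of the 3 measured hepatocyte markers, of which Apoa1 alone was over 4.5 on more than 1 array, was 6.29 to 6.86 in replicate 1, 6.19 to 6.34 in replicate 2 and 7.02 to 7.90 in replicate 3. That of the 2 measured sinusoidal endothelial markers, both past the F test, was 5.89 to 6.08, 5.60 to 5.75 and 5.79 to 6.02. These 2 moved in opposite directions, with 1 called higher and 1 called lower in replicate 2. Mrc1, 1 of them, was over 4.5 on 2 arrays only, so the sum does not describe both. For the 2 other endothelial markers the summed level was 5.21 to 5.55, 5.15 to 5.21 and 5.17 to 5.45, with 1 higher and 1 lower in each replicate number. For the 3 Kupffer cell and leukocyte markers it was 7.30 to 7.76, 7.59 to 7.77 and 7.59 to 7.88. The part of these markers in the result was not tested.

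Mrpl9, Mrpl16, Mrpl2, Mrpl11, Mrps31 and Mrps10 had the smallest p for the replicate number. Mrpl9, a counterpart of a bacterial large subunit protein, was 7.55, 7.92 and 7.90 in FFA+INT-767 replicates 1, 2 and 3, 7.57, 8.14 and 8.17 in FFA, 7.43, 7.88 and 7.82 in INT-767 and 7.39, 8.16 and 7.88 in Media. All replicate 1 arrays were thus below all others, with a difference of -0.50 (standard error 0.070, adjusted p = 0.00382 by limma). Mrpl16, which in bacteria lies by the peptidyl transferase centre, was 9.03, 9.29 and 9.33 in FFA+INT-767, 8.80, 9.30 and 9.41 in FFA, 8.75, 9.32 and 9.23 in INT-767 and 8.76, 9.12 and 9.22 in Media. It too was lowest in replicate 1 (-0.44, standard error 0.065, adjusted p = 0.0049 by limma) but was higher in replicate 3 than in replicate 2 in 3 of the 4 groups.

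Mrpl2, whose bacterial counterpart also lies near that centre, was 7.74, 8.32 and 8.03 in FFA+INT-767, 7.92, 8.32 and 8.20 in FFA, 7.80, 8.38 and 8.08 in INT-767 and 7.96, 8.24 and 8.03 in Media. Its replicate 2 arrays were the highest 4 of the 12 (0.34, standard error 0.063, adjusted p = 0.0119 by limma) and its replicate 1 arrays the lowest 4. Mrpl11, a protein of the base of the stalk in bacteria, differed by -0.32 in replicate 1 and by 0.27 in replicate 2 (standard error 0.055), with 8.82 to 8.89 in replicate 1, 9.14 to 9.33 in replicate 2 and 9.04 to 9.15 in replicate 3. Mrps31, a mitochondria-specific protein, had -0.30 in replicate 1 and 0.20 in replicate 2 (standard error 0.053). Mrps10, a counterpart of a bacterial small subunit protein, had -0.29 and 0.38 (standard error 0.074), and was 7.88, 7.90, 8.03 and 7.89 in the 4 replicate 2 arrays and at most 7.70 elsewhere. Mrpl9, Mrpl16, Mrpl2, Mrpl11 and Mrps31 kept an adjusted p under 0.05 in replicate 1 when any 1 array was left out. Without both FFA replicate 2 and INT-767 replicate 2 only Mrpl9 and Mrpl16 of these 6 did. Mrps10 lost the threshold in 10 of the 12 fits with 1 array left out.

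Among the other members that passed the F test were Mrpl47, Mrpl1, Mrpl19, Mrpl37, Mrpl39 and Mrpl13 of the large and Mrps7, Mrps18b, Mrps34 and Mrps14 of the small subunit. Mrpl47 had the largest difference of any member, -0.64 in replicate 1 (standard error 0.15, adjusted p = 0.0272 by limma), and lost the threshold in 7 of the 12 fits with 1 array left out. Its second cluster had -0.22 in replicate 1 and did not pass the F test (adjusted p = 0.0765 by limma). Nor did the second cluster of Mrps18b (adjusted p = 0.0789 by limma), whereas the unused cluster of Mrpl12 did (adjusted p = 0.0472 by limma). Which members passed thus depended on the cluster taken here too. Of the 16 genes 15 had their lowest mean in replicate 1 and 12 their highest in replicate 2. Mrps14 was the exception, with its lowest mean in replicate 3, and it lay near or below 4.5 on all arrays. The last gene inside the threshold was Mrpl13 (adjusted p = 0.0485) and the first outside was Mrpl24 (adjusted p = 0.0548 by limma). Of the members with a bacterial counterpart 11 of 43 passed and of those specific to mitochondria 4 of 25, and their medians in replicate 1 were -0.11 and -0.15.

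**Figure D3:**
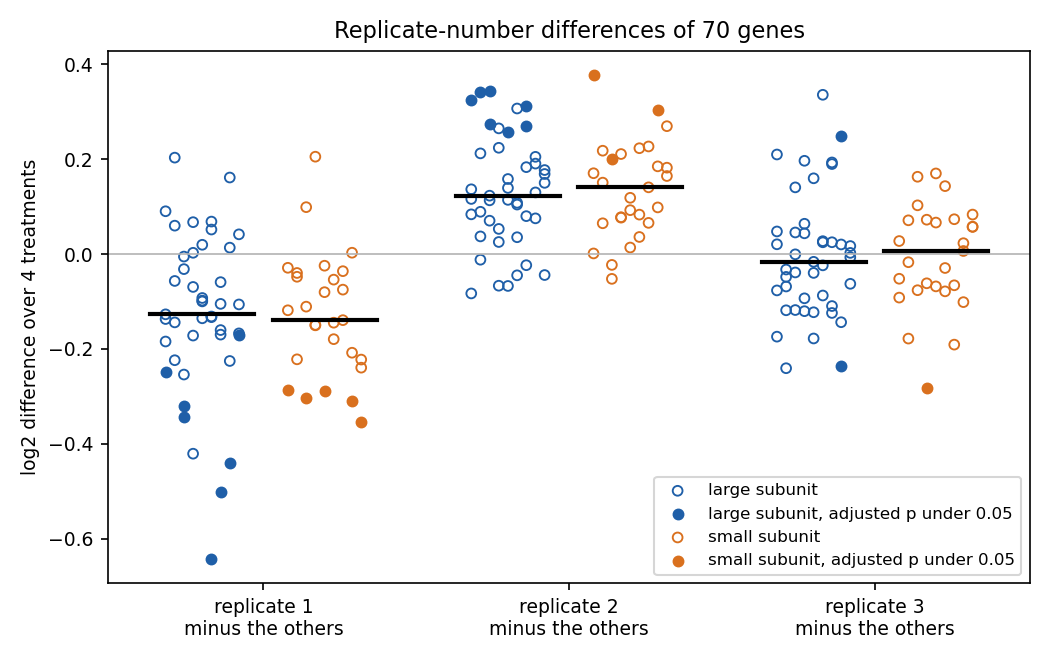
Log2 difference between the 4 arrays of a replicate number and the other 8, with treatment as a factor, for each of 70 genes by subunit, with filled points at an adjusted p under 0.05 and bars at the medians. Filled points lie below 0 in replicate 1 (12 genes, against 7.83% of all clusters) and above 0 in replicate 2 (10 genes, against 5.69%). Without FFA replicate 2 and INT-767 replicate 2 these were 2 and 0 genes.

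**Figure D4:**
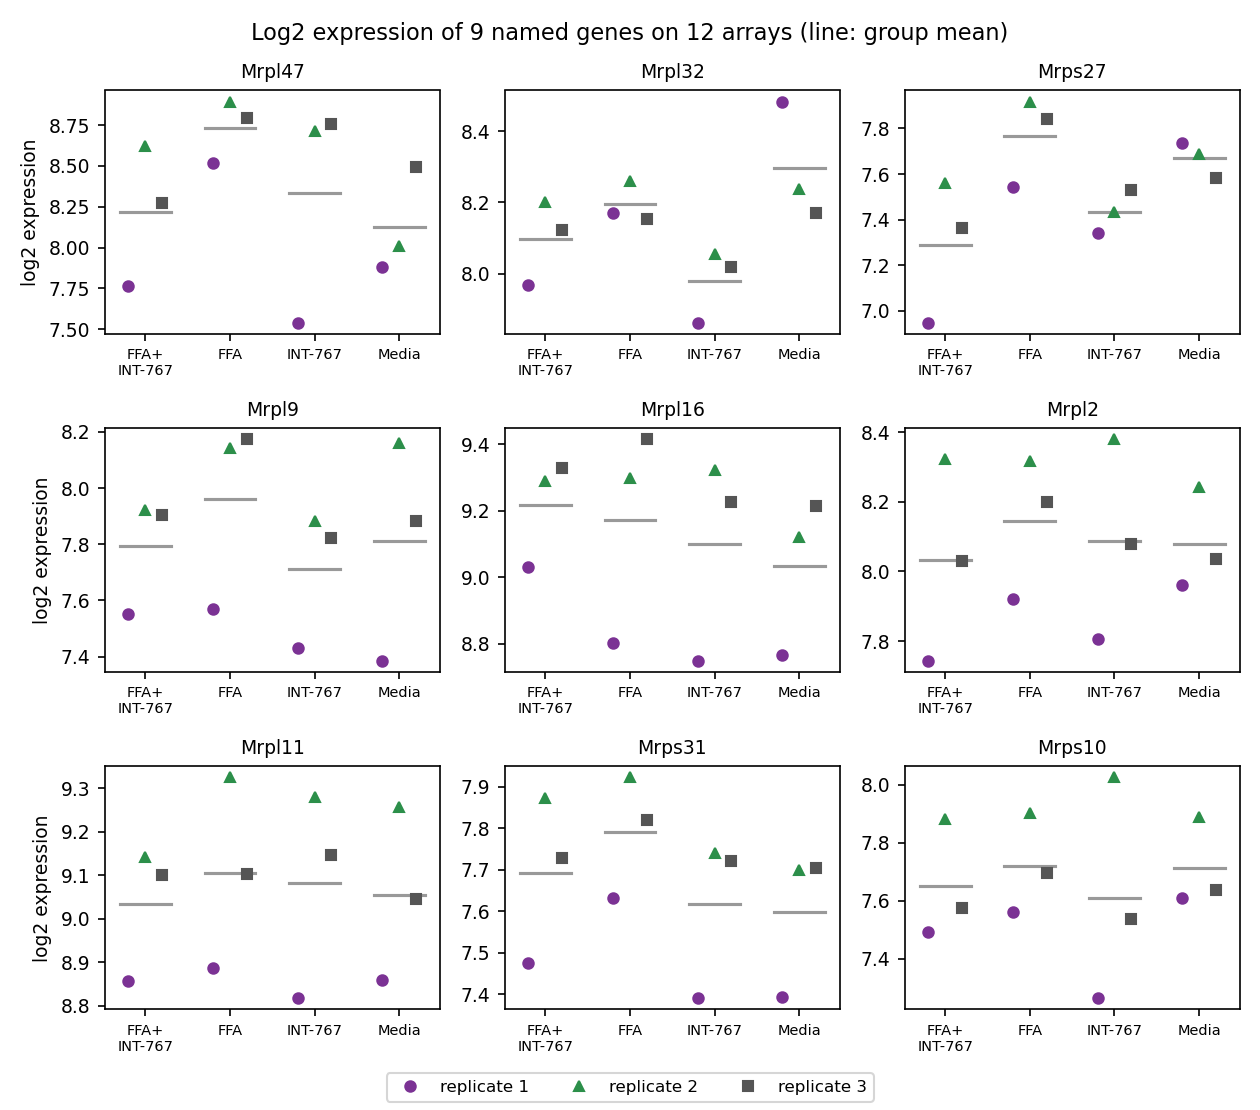
Log2 expression of 9 genes on the 12 arrays, by group, with the marker giving the replicate number and the line the group mean. Replicate 1 is the lowest array of every group for Mrpl9, Mrpl16, Mrpl2, Mrpl11, Mrps31 and Mrps10, and the 3 FFA arrays of Mrpl47 lie above its 3 Media arrays.

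**Figure D5:**
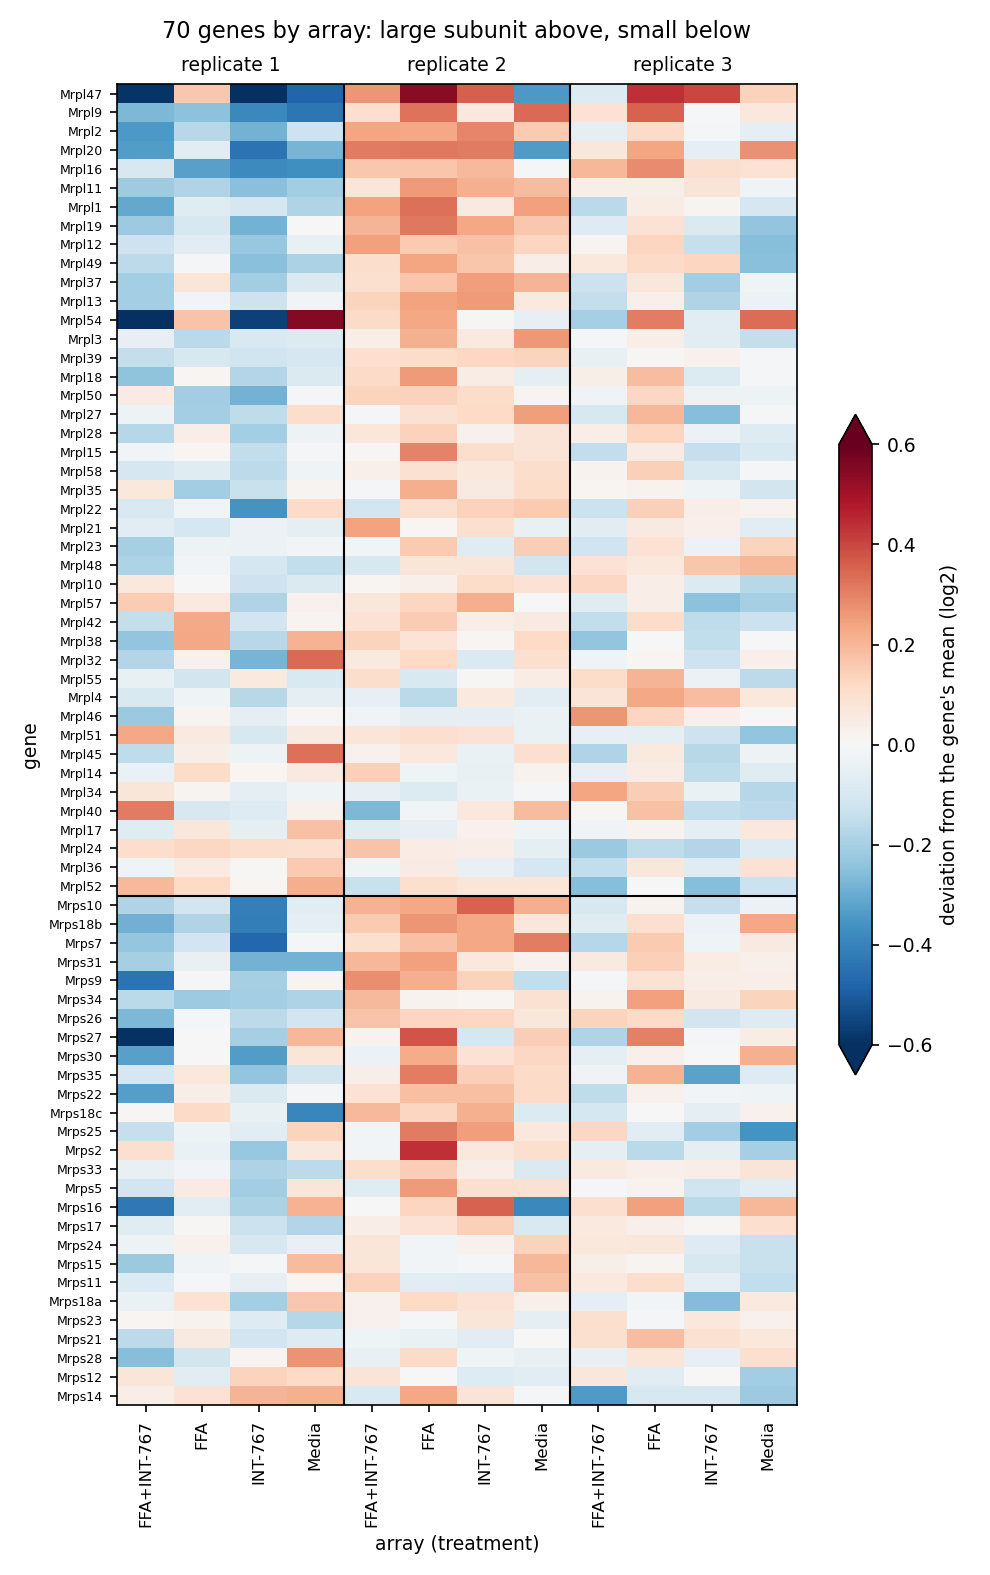
Deviation (log2) of each of the 70 genes from its own mean on the 12 arrays, arranged by replicate number and then by group, with large subunit genes above small subunit genes. Genes are sorted by their difference between replicates 1 and 2, and the colours saturate at 0.6.

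Genes with 2 clusters showed how far a value depends on the probes. Apart from Mrpl47, the clusters of Mrpl36, Mrps5, Mrps16 and Mrpl10 differed most. The Mrpl36 cluster used here had a log2 fold change of 0.0051 with FFA against Media, and its weaker cluster 0.43. Those of Mrps5 had 0.073 and 0.32, and those of Mrps16 0.097 and 0.32. The weaker clusters of Mrpl36, Mrps5 and Mrps16 had unadjusted p of 0.0256, 0.0383 and 0.0356 by limma in this comparison, so which members passed depended on the cluster taken, and 0.0688, 0.118 and 0.0835 without FFA replicate 2. The same held in FFA+INT-767 against FFA. There the weaker clusters of Mrpl36 and Mrps16 had -0.31 and -0.36 (unadjusted p = 0.0455 and 0.0286 by limma). Without FFA replicate 2 they had -0.30 and -0.36 (unadjusted p = 0.110 and 0.0673 by limma). In FFA+INT-767 against Media the clusters of Mrps5 had opposite signs (-0.10 and 0.18). Those of Mrpl10 had 0.024 and 0.28 with INT-767 against Media, or -0.047 and 0.39 without INT-767 replicate 2. In each case the cluster with the lower mean gave the larger value.

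The rest of the mitochondrial translation machinery was read from lists. Genes called by replicate number (adjusted p under 0.05) are to be set against the calls among all clusters. These were 6.57% higher and 7.83% lower in replicate 1, 5.69% and 4.39% in replicate 2, and 5.22% and 4.8% in replicate 3. Of mitoribosomal proteins with other symbols, Dap3, a GTP-binding protein of the small subunit, Ptcd3, a pentatricopeptide repeat protein of the small subunit, and Gadd45gip1, a protein of the large subunit, were measured. With FFA against Media they had log2 fold changes of 0.10, 0.11 and 0.086, and in FFA+INT-767 against FFA -0.082, -0.12 and -0.17, none with an unadjusted p under 0.05 in limma. When FFA replicate 2 was left out, Dap3, Ptcd3 and Gadd45gip1 had 0.060, -0.049 and 0.051 with FFA against Media and -0.041, 0.036 and -0.13 in FFA+INT-767 against FFA. Ptcd3 rose in replicate 2 by 0.46 (adjusted p = 0.00253 by limma) and fell in replicate 3 by 0.27 (adjusted p = 0.0217). Dap3 had -0.17 in replicate 1 (adjusted p = 0.0902 by limma).

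Of 25 genes of mitoribosome assembly and rRNA modification 20 were higher and 5 lower with FFA against Media (median 0.084), none with an unadjusted p under 0.05, and the median was 0.033 without FFA replicate 2. Rpusd4, a pseudouridine synthase of the large mitochondrial rRNA, had -0.49 in FFA+INT-767 against FFA, -0.51 against Media and -0.38 against INT-767 (unadjusted p = 0.00224, 0.0117 and 0.0426 by limma, none past the adjustment), the 3 comparisons sharing the FFA+INT-767 arrays. It had -0.44 against FFA and -0.49 against INT-767 without FFA replicate 2 and INT-767 replicate 2 (unadjusted p = 0.0109 and 0.0244 by limma). By replicate number 8 of the 25 passed the F test, against 26.9% of all genes with 1 symbol. In replicate 2, 22 were higher and 3 were called, the GTPase Noa1 (0.50), the RNA-binding Fastkd2 (0.34) and Rcc1l (0.25), against 0 called lower. In replicate 1, Rcc1l (-0.33) and the rRNA methyltransferase Nsun4 (-0.29) were called lower and the GTPase Mtg2 (0.25) and the methyltransferase Mettl15 (0.25) higher. In replicate 3, 17 of the 25 were lower (median -0.061, or -0.0064 with the arrays shifted to the same median), with 5 called lower, among them Mtg2 (-0.44), the rRNA methyltransferase Tfb1m (-0.43) and Noa1 (-0.38), and 1 called higher, Mpv17l2 (0.34).

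Of 14 mitochondrial translation factors 10 were higher with FFA against Media (median 0.077), and Taco1, an activator of the translation of a cytochrome c oxidase subunit, had 0.39 (unadjusted p = 0.0142, adjusted p = 1.0 by limma). The median and the value of Taco1 were 0.038 and 0.32 without FFA replicate 2 (unadjusted p = 0.0562 for Taco1 by limma). In FFA+INT-767 against FFA 13 of the 14 were lower (median -0.091), none with an unadjusted p under 0.05, and the median was -0.056 without FFA replicate 2 and -0.045 after a second quantile normalization. The elongation factor Gfm1 differed by -0.43 in replicate 1 (adjusted p = 0.00831) and Lrpprc, which stabilizes mitochondrial mRNAs, by 0.41 in replicate 2 (adjusted p = 0.0193 by limma). In replicate 3, 11 of the 14 were lower (median -0.15), with the factors Gfm2 (-0.37) and Mtif2 (-0.26) called. Of 19 mitochondrial aminoacyl-tRNA synthetases 15 were lower with INT-767 against Media (median -0.074), or 10 with the arrays shifted to the same median (median -0.038). Sars2 had -0.44 there (unadjusted p = 0.0197, adjusted p = 1.0 by limma). Without INT-767 replicate 2, 17 were lower (median -0.11) and Sars2 had -0.35 (unadjusted p = 0.0670 by limma). By replicate number 17 of the 19 were higher in replicate 2 (median 0.11), with Vars2 (0.40) and Tars2 (0.28) called, and 13 lower in replicate 3 (median -0.081, or -0.026 with shifted arrays), with Vars2 (-0.50), Nars2 (-0.47), Tars2 (-0.31) and Rars2 (-0.26) called. In replicate 1 Qrsl1 (-0.38), which acts in the charging of a mitochondrial tRNA, and Fars2 (-0.29) were called lower.

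Of 10 genes of mitochondrial DNA replication and transcription, 8 were lower in replicate 1 (median -0.061) and 8 higher in replicate 2 (median 0.20). Tfb2m, a mitochondrial transcription factor, had -0.40 and 0.27, and the helicase Twnk -0.25 and 0.35, each with an adjusted p under 0.05 by limma. Of 8 nuclear regulators of mitochondrial genes 7 were lower in replicate 1 (median -0.23). Pprc1, a coactivator of nuclear respiratory factors, had -0.46 in replicate 1 and 0.42 in replicate 2 (adjusted p = 0.00507 and 0.00736 by limma), and Gabpa, the DNA-binding subunit of GABP, -0.26 in replicate 1 (adjusted p = 0.0204 by limma). Myc differed from Media by -0.97 in FFA+INT-767, -0.63 in FFA and -0.73 in INT-767 (unadjusted p = 0.00774, 0.0451 and 0.0394, all adjusted p over 0.9 by limma, with Media shared). Its differences were -0.73 in FFA and -0.89 in INT-767 when the replicate 2 array of each was left out (unadjusted p = 0.0512 and 0.0310).

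The 10 measured genes of the mitochondrial genome had replicate-number medians of -0.0090, 0.0084 and -0.0072 in replicates 1, 2 and 3, with 0 called. With treatment they had 0.053 in FFA, 0.037 in INT-767 and 0.073 in FFA+INT-767 against Media, with 10 of 10 higher each time, and 0 at an unadjusted p under 0.05 by limma. After a second quantile normalization 7, 9 and 9 were higher, with medians of 0.010, 0.015 and 0.042. Without INT-767 replicate 2 the INT-767 median was 0.0074, with 7 of 10 higher, and without FFA replicate 2 the FFA median was 0.062, with 10 of 10 higher. Of the 60 cytosolic ribosomal proteins 54 were higher in replicate 2 (median 0.13, with 6 called higher) and 44 lower in replicate 1 (median -0.076, with 3 called lower). The nuclear-encoded respiratory chain genes had a median of -0.055 in replicate 1, -0.015 in replicate 2, where 41 of 71 were lower, and 0.061 in replicate 3, where 53 of 71 were higher. The medians of the assembly, translation factor, synthetase, replication and cytosolic ribosomal lists stayed above 0 in replicate 2 under both scalings and without FFA replicate 2 and INT-767 replicate 2. Of the 57 calls by replicate number in all these lists, 46 remained with the arrays shifted to the same median and 50 after a second quantile normalization, but 7 remained without these 2 arrays, among them Gfm1 and Pprc1 in replicate 1 and Mtg2 and Vars2 in replicate 3. Differences between these lists and the members, or between these lists and all clusters, were not tested.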

How the data were processed

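Expression was measured in TSEC on 12 arrays, 3 for each of 4 groups, and the treatment named in a label gave the group. Log2 expression values were made by the authors in Partek 6.6, by GC-RMA according to the methods and RMA according to the submitters' processing notes, and these deposited log2 values were used with no further normalization. The lowest maximum of a cluster over the arrays was 4.50001, so the deposited table had been filtered on the level for a present gene. The number of arrays limits the precision.

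Each treatment comparison was fitted in R 4.3.3 with limma 3.58.1 (lmFit and eBayes) on the 6 arrays of its groups, without a block, over clusters that exceeded 4.5 on 1 or more of those arrays. The interaction and the replicate number used all 12 arrays. The replicate number was fitted with treatment as a factor, and each number was set against the mean of the others. Every p was adjusted over all clusters by the method of Benjamini and Hochberg. Replicate numbers paired the samples: deviations from group means of same-numbered arrays correlated at 0.197 to 0.535 in all 18 pairs over all clusters, and of different-numbered arrays at -0.453 to 0.046. Over the members alone these ranges overlapped, at -0.131 to 0.593 and -0.558 to 0.323.

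The members, lists and named genes were chosen with earlier results of these data known. Members were named at an unadjusted p under 0.05 where groups also did not overlap, up to 4 in each direction by size in a treatment comparison, and the 6 with the smallest p for the replicate number. Added by rule were Mrpl47, Mrps30, Mrps18a and Mrps36, up to 5 genes with several clusters, list genes with an unadjusted p under 0.05 (up to 3 per list and comparison) and mitoribosomal proteins with other symbols. Other members are described as named after their values were seen. Of the list entries, 3 of 7 mitoribosomal proteins with other symbols, 25 of 26 assembly genes, 14 of 17 translation factors, 19 of 20 synthetases, 10 of 11 replication and transcription genes, 8 of 9 regulators and 10 of 15 mitochondrially encoded genes matched a cluster with 1 symbol. Of the marker lists, 2 of 8 endothelial, 2 of 7 sinusoidal endothelial, 3 of 6 hepatocyte, 3 of 6 Kupffer cell and leukocyte and 6 of 7 stellate cell and fibroblast markers did. Motifs were searched as exact letters in RefSeq promoters with Python 3.11.15. The processing was varied by dropping the filter, a filter of 3 arrays, shifted medians, a second quantile normalization, the replicate block, a joint fit of the 12 arrays, an unmoderated test as in the methods, an intensity trend with a robust prior, all clusters of a gene averaged, subunits by structure, means over genes, no treatment factor and each array left out in turn.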

Additional observations from a re-analysis of the deposited data

How the results depend on the processing

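Of 654 values recomputed under other settings 545 stayed on their side of the threshold, near their count or within the spread between replicates, and 109 did not. Of the 200 that belong to single genes 0 changed sign, whereas 16 of 164 medians of the members did (in INT-767 against Media, FFA+INT-767 against INT-767, FFA+INT-767 against Media, the interaction and replicate 3), as did 43 of 172 differences between subunits. The replicate block gave 4 members with an unadjusted p under 0.05 in FFA+INT-767 against FFA, 0 in INT-767 against Media and 2 in the interaction, and changed no other count. The count was 0 in INT-767 against Media with arrays shifted to the same median, with a second quantile normalization and with an intensity trend (2.93%, 3.16% and 2.78% of all clusters), and 2 with the unmoderated test (3.05%). With all 12 arrays in 1 fit it was 3 in FFA+INT-767 against FFA (4.11% of all clusters), 2 in FFA+INT-767 against Media (6.41%) and 0 in FFA against Media (2.83%). With the unmoderated test it was 3 in FFA+INT-767 against FFA (4.57%), which were Mrpl22, Mrpl36 and Mrps12 and not Mrps27, 1 in FFA+INT-767 against Media (4.59%), which was Mrpl22, and 1 in FFA against Media (2.99%), which was Mrpl42 and not Mrpl47. Shifted arrays gave medians of -0.026 in FFA+INT-767 against INT-767, 0.0044 in INT-767 against Media and 0.043 in replicate 3, and a second quantile normalization gave -0.035 in FFA+INT-767 against FFA and 0.018 in FFA+INT-767 against Media. The large minus small subunit median was -0.015 in INT-767 against Media with subunits taken by structure, and with clusters averaged -0.015 in FFA+INT-767 against INT-767 and 0.0045 in replicate 2. In replicate 1 the adjusted p of limma was 0.133 for Mrpl39 after quantile normalization and 0.0516 for Mrpl47 without the treatment factor.

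Without FFA replicate 2 and INT-767 replicate 2, a setting chosen after seeing the data, the count was 0 in FFA against Media, INT-767 against Media and FFA+INT-767 against FFA. The medians were 0.083 in FFA+INT-767 against INT-767, -0.055 in FFA+INT-767 against FFA and 0.056 in the interaction, the subunit difference was -0.025 in INT-767 against Media and -0.016 in FFA+INT-767 against INT-767, and 2 members passed the F test. With these left out Mrpl2, Mrpl11, Mrps31, Mrps10, Mrpl47 and Mrpl39 lost an adjusted p of 0.05 in replicate 1 (0.0541 to 0.159 by limma).

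With 1 array left out in turn the count ranged over 0 to 2 in FFA against Media, 0 to 1 in INT-767 against Media, 0 (without FFA replicate 2) to 6 (without FFA+INT-767 replicate 2, where it was 7.71% of all clusters) in FFA+INT-767 against FFA, 0 to 3 (without FFA+INT-767 replicate 2, 5.93%) in FFA+INT-767 against Media and 0 to 1 in the interaction. The median ranged from -0.030 (without INT-767 replicate 1) to 0.083 (without INT-767 replicate 2) in FFA+INT-767 against INT-767, from -0.10 (without INT-767 replicate 2) to 0.018 (without INT-767 replicate 1) in INT-767 against Media, from 0.020 (without FFA replicate 2) to 0.10 (without FFA replicate 1) in FFA against Media, from -0.14 (without FFA replicate 1) to -0.032 (without FFA+INT-767 replicate 1) in FFA+INT-767 against FFA, from -0.069 (without FFA+INT-767 replicate 2) to 0.038 (without FFA+INT-767 replicate 1) in FFA+INT-767 against Media and from -0.11 (without INT-767 replicate 1) to 0.024 (without INT-767 replicate 2) in the interaction. The subunit difference ranged from -0.025 to 0.025 in INT-767 against Media, -0.016 to 0.028 in FFA+INT-767 against INT-767 and -0.045 to 0.035 in replicate 2. The F test gave 6 (without FFA+INT-767 replicate 1 or 2) to 12 (without Media replicate 2). In replicate 1 Mrps10 lost the threshold in 10 of 12 such fits, Mrpl47 in 7 and Mrpl39 in 12. The cause of these changes was not tested, and all leave-out fits have fewer arrays, with replicate numbers no longer balanced between groups. Where an arm kept 2 arrays its spread was pooled with that of the others. Mrpl27 and Mrps14 lie near the level for a present gene, which limits their values.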
